A study of Mus musculus with 4 samples.

Results

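The transcripts described here are those of the subunits of RNA polymerases I, II and III in late 2C mouse embryos treated with Mdivi-1. They were taken as every row of the deposited table whose gene symbol begins with Polr1, Polr2 or Polr3, which gave 31 of 26022 rows. Of these, 30 encode a polymerase subunit or, in the case of *Polr2m*, a protein bound to polymerase II. The remaining gene, *Polr1has*, is a neighbour of *Polr1h* on the opposite strand, and the GENCODE M21 annotation lists it as protein coding. The study asked how inhibition of DRP1, the dynamin-related GTPase that divides mitochondria, affects the embryo transcriptome, with Mdivi-1 as a small-molecule inhibitor of DRP1. Zygotes of ICR mice, an outbred strain, were collected after superovulation and mating and cultured in KSOM, a medium for preimplantation embryos. The treated group had 200 μM Mdivi-1 in the medium for 16 h and the control group had none, and whether the control medium held the solvent was not given in the sources used here. Each group comprised 2 libraries, L2C_Mdivi and L2C_Con, with 8 to 10 embryos collected for a group. The Smart-Seq2 amplification used for them reads polyadenylated RNA along its length and records neither its strand nor a tag for single molecules. Since nothing in the sources ties the libraries of a group to different litters or pools, p-values measure only how these samples vary, and that variation may be technical.

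RNA polymerase I transcribes the ribosomal RNA precursor, RNA polymerase II transcribes messenger RNAs, and RNA polymerase III transcribes transfer RNAs, 5S ribosomal RNA and other small RNAs. Each enzyme has its own largest and second largest subunits, which form the active centre, and small subunits that are built into all of these enzymes or into polymerases I and III together. In the mouse, the embryonic genome becomes strongly transcribed at the 2C stage, while much of the RNA that the oocyte stored is degraded.

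The libraries held 17712075 and 18500928 counts in Mdivi-1 embryos and 20077326 and 18279626 counts in control embryos, and 14793 to 16311 genes had a count in a library. Levels are given as CPM, read counts set to a common library total, scaled by the trimmed mean of M values (TMM) method of edgeR. The TMM factors were 1.05 and 1.04 in Mdivi-1 replicates 1 and 2, and 1.10 and 0.83 in control replicates 1 and 2, so that control replicate 2 stood apart in its scaling. All 10 2C markers and all 10 oocyte and zygote markers were detected in every library. The 2C markers include *Zscan4d* and *Zfp352*, 2C genes that the study expects to be silent by the late 2C stage. A higher level of them is therefore no sign of a later stage. The summed level of the 2C markers was 2577 and 3049 CPM in Mdivi-1 embryos and 1159 and 2068 CPM in controls. Of these 10 genes, 6 lay higher and 1 lower in both Mdivi-1 libraries than in both controls. Of all genes tested, 26.1% lay higher in this way and 23.9% lower. The oocyte and zygote markers summed to 3610 and 4624 CPM in Mdivi-1 embryos and 1567 and 3182 CPM in controls. Most of each sum was *Oosp1*, at 2401 and 3198 CPM in Mdivi-1 embryos and 956 and 2368 CPM in controls. Of these 10 markers, 4 lay higher and 1 lower in both Mdivi-1 libraries than in both controls. The 8 morula and blastocyst markers, of which *Sox17* and *Cdx2* were at 0, summed to 31.8 and 36.6 CPM in Mdivi-1 embryos and 44.7 and 58.9 CPM in controls. Most of each sum was *Tfap2c*, at 26.2 and 29.1 CPM in Mdivi-1 embryos and 41.2 and 49.9 CPM in controls. Of these 8 markers, 1 lay higher and 1 lower in both Mdivi-1 libraries than in both controls. Of 12 cumulus and granulosa markers, *Has2*, *Ptx3*, *Inha* and *Amh* were at 0 in every library, and the list summed to 20.3 and 22.5 CPM in Mdivi-1 embryos and 7.78 and 16.6 CPM in controls. The part of these marker differences in the results below was not tested.

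Most subunit transcripts had a lower level in Mdivi-1 embryos than in control embryos, and none was higher at an unadjusted p under 0.05 by any test run on all 4 libraries. Of the 30 subunit genes, 29 had enough counts to be tested, and 25 of these had a negative log2 fold change, against 48.7% of all 14259 genes tested. The median log2 fold change was -0.66 over the 29 subunits and 0.03 over all genes tested. In 21 of the 29 both Mdivi-1 libraries lay below both controls, against 23.9% of all genes, and in 0 of the 29 did both lie above, against 26.1% of all genes. By edgeR's quasi-likelihood test, 9 subunits were lower at an unadjusted p under 0.05, against 7.64% of all genes, and 0 were higher, against 8.27%. After Benjamini-Hochberg adjustment over all genes, edgeR called 0 subunits, as it called 0% of all genes. DESeq2, which the study used, called 6 subunits lower, among them *Polr1f*, *Polr1h* and *Polr2h*, against 2.8% of all genes, and 0 higher, against 3.3%.

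These counts depended on single libraries. DESeq2 called 11 subunits without control replicate 1, 3 without control replicate 2 (*Polr1f*, *Polr1h* and *Polr2h*), and 0 and 1 (*Polr3b*) when Mdivi-1 replicate 1 or 2 was left out. Over all genes the calls of DESeq2 moved in the same fits to 1421, 801, 81 and 211, against 853 with all libraries. By edgeR the 9 subunits with an unadjusted p under 0.05 became 13 and 5 when control replicate 1 or 2 was left out, and 4 and 6 when Mdivi-1 replicate 1 or 2 was. In such a fit the group left with a single library is assumed to vary like the other. Abundant genes as a whole also had somewhat negative log2 fold changes, with a median of -0.17 for genes of 50 to 200 CPM and -0.28 for genes of 200 to 1000 CPM. In the same ranges the 8 and 11 subunits had medians of -0.75 and -0.66. At an unadjusted edgeR p under 0.05, 17.7% and 20.3% of all genes in these ranges were lower, and 3 of the 8 and 3 of the 11 subunits were. CPM are shares of a library, and the embryos were pooled whole, so that fewer cells with a transcript and less of it per cell cannot be told apart.

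**Figure D1:**
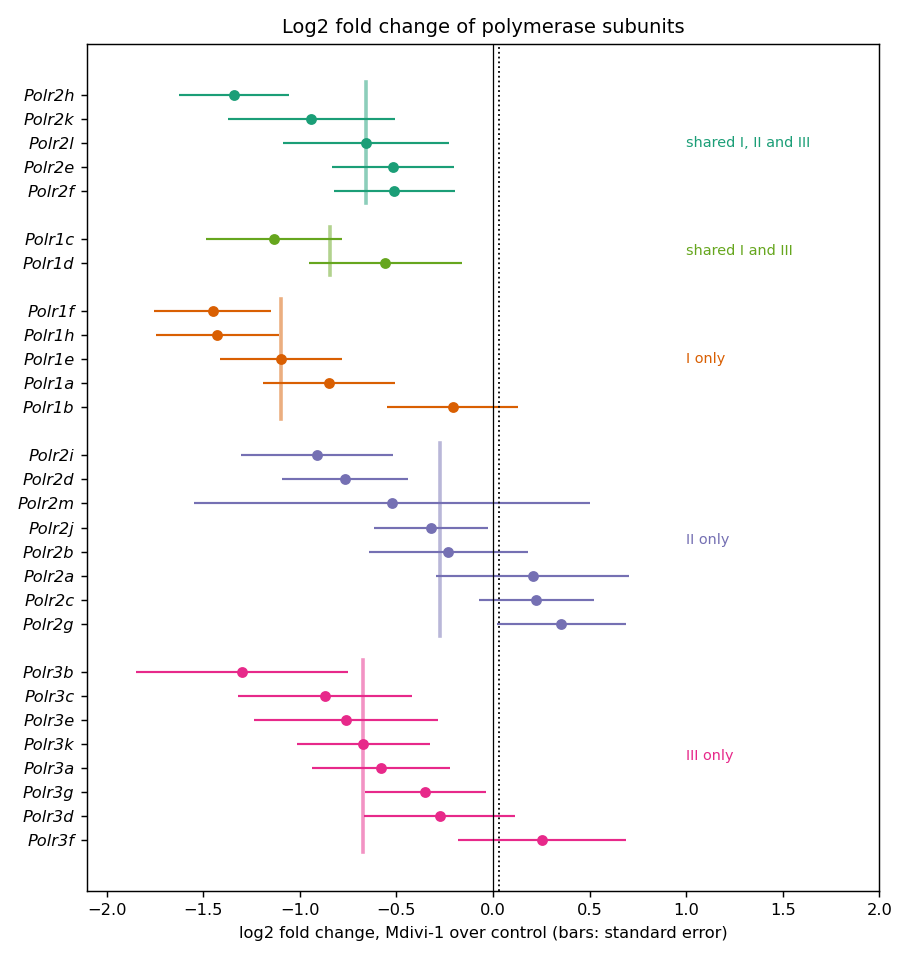
Log2 fold change, Mdivi-1 over control (x axis), of 28 of the 29 subunits tested (y axis), with bars of 1 standard error from edgeR and the subunits ordered within their class. Coloured vertical lines are class medians, from -1.10 for subunits of polymerase I only to -0.28 for subunits of polymerase II only, and the dotted line is the median of all genes tested at 0.03; 24 of the 28 points lie left of 0.

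The subunits built into all of polymerases I, II and III all lay lower in Mdivi-1 embryos by their log2 fold changes, whose median over the 5 genes was -0.66. *Polr2h* encodes the shared subunit RPB8 and lies on chromosome 16 of GRCm38 from 20717665 to 20722267, on the plus strand. It had 152 and 156 CPM in Mdivi-1 embryos and 390.0 and 390.0 CPM in controls. The groups were far apart relative to the spread within each, which was smaller than for the other shared subunits. The log2 fold change was -1.34 with a standard error of 0.28, an edgeR adjusted p of 0.151 and a DESeq2 adjusted p of 0.000543. It varied only between -1.37 and -1.32 when each library was left out in turn. Of its exonic bases, 5.4% overlap *Clcn2* on the other strand, and reads there cannot be assigned without strand.

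*Polr2k* encodes the small zinc-binding subunit RPB12, which helps to hold the assembled core together. It had 147 and 132 CPM in Mdivi-1 embryos and 155 and 381 CPM in controls, where the high value is that of control replicate 2. Its log2 fold change was -0.94 (edgeR adjusted p = 0.337, DESeq2 adjusted p = 0.159), and it was -0.17 without control replicate 2. *Polr2l*, for the zinc-binding assembly subunit RPB10, had 566 and 395 CPM in Mdivi-1 embryos and 474 and 1041 CPM in controls. Here the groups overlapped, the log2 fold change was -0.66 (edgeR adjusted p = 0.512), and without control replicate 2 it was 0.00178. *Polr2e*, for the subunit RPB5 at the jaw of the enzyme, had 107 and 74.9 CPM in Mdivi-1 embryos and 139 and 121 CPM in controls. *Polr2f*, for the clamp-contacting subunit RPB6, had 488 and 517 CPM in Mdivi-1 embryos and 606 and 824 CPM in controls. Neither of these overlapped between the groups, and their log2 fold changes were -0.52 and -0.51 (edgeR adjusted p = 0.475 and 0.481).

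**Figure D2:**
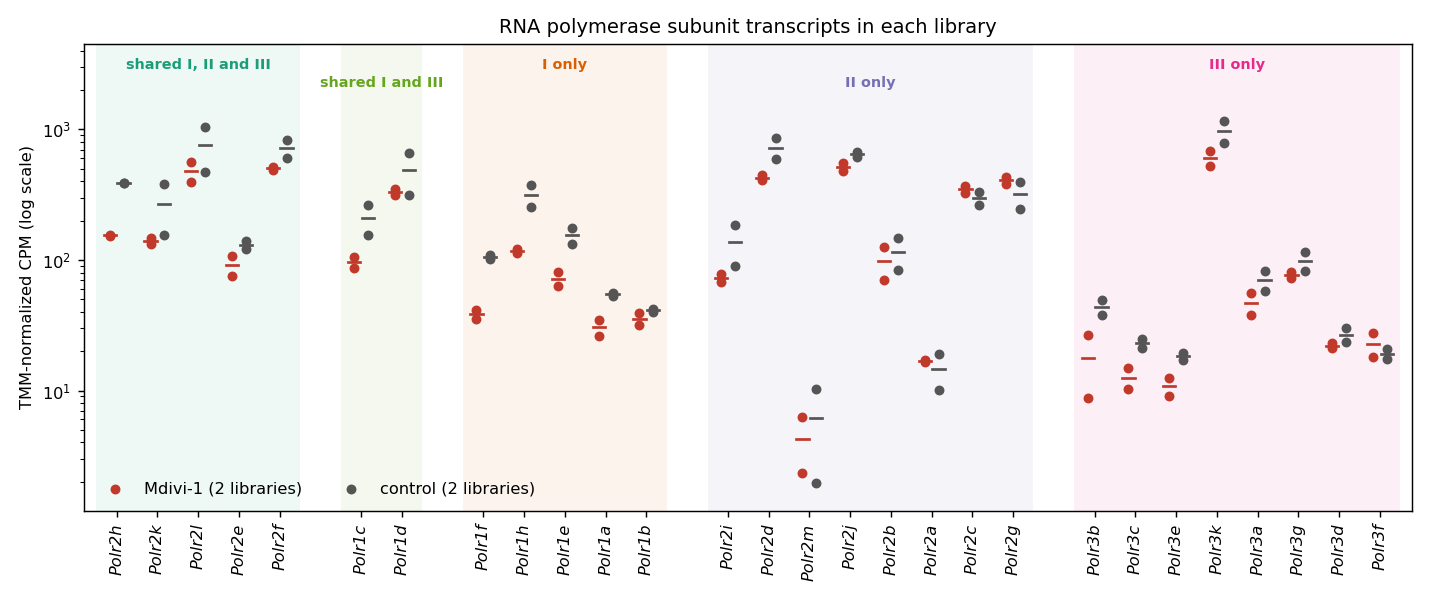
TMM-normalized CPM (y axis, log scale) of 28 of the 29 subunits tested (x axis, grouped by class), with red dots for the 2 Mdivi-1 libraries, grey dots for the 2 control libraries and bars at the group means. For *Polr2h* the Mdivi-1 libraries sit at 152 and 156 CPM and both controls at 390.0 CPM, whereas for *Polr2l* and *Polr1d* a Mdivi-1 library lies above the lower control.

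*Polr1c* and *Polr1d* encode the paired subunits AC40 and AC19 of polymerases I and III, which take the place that RPB3 and RPB11 hold in polymerase II. *Polr1c*, on chromosome 17 from 46243920 to 46248054 on the minus strand, had 86.2 and 105 CPM in Mdivi-1 embryos and 154 and 265 CPM in controls. The groups did not overlap, but the controls differed from each other more than the Mdivi-1 libraries did. The log2 fold change was -1.13 with a standard error of 0.35, an edgeR adjusted p of 0.213 and a DESeq2 adjusted p of 0.0364. It was -0.71 without control replicate 2 and -1.47 without control replicate 1. Its partner *Polr1d* had 316 and 347 CPM in Mdivi-1 embryos and 314 and 661 CPM in controls. The lower control was close to the Mdivi-1 level of *Polr1d*, so that its log2 fold change of -0.56 (edgeR adjusted p = 0.557) became 0.059 without control replicate 2.

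The subunits of polymerase I only had the most negative class median, -1.10 over 5 genes. In all 5 both Mdivi-1 libraries lay below both controls, against 23.9% of all genes. Of the 5, 4 were lower at an unadjusted edgeR p under 0.05, against 7.64% of all genes. DESeq2 called 3 of them lower, against 2.8% of all genes. *Polr1f* encodes A43, a stalk subunit that contacts the initiation factor RRN3. It lies on chromosome 12 from 33429635 to 33441392 on the plus strand, under the name *Twistnb* in GENCODE M21. It had 41.4 and 35.2 CPM in Mdivi-1 embryos and 101 and 108 CPM in controls, with a log2 fold change of -1.45 and a standard error of 0.30 (edgeR adjusted p = 0.150, DESeq2 adjusted p = 0.00354). Both groups were tight, and the log2 fold change lay between -1.57 and -1.35 when each library was left out.

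*Polr1e* encodes PAF53, which with its partner forms a module that resembles the polymerase II factor TFIIF. It had 63.2 and 80.7 CPM in Mdivi-1 embryos and 133 and 175 CPM in controls. Its log2 fold change was -1.10 with a standard error of 0.32 (edgeR adjusted p = 0.199, DESeq2 adjusted p = 0.0349). *Polr1a*, for the largest subunit of polymerase I, had 25.9 and 34.9 CPM in Mdivi-1 embryos and 56.2 and 53.2 CPM in controls. The groups did not overlap, but neither test called it after adjustment (log2 fold change -0.85 with a standard error of 0.34, edgeR adjusted p = 0.283, DESeq2 adjusted p = 0.245). *Polr1b*, for the second largest subunit, had 31.99 and 39.04 CPM in Mdivi-1 embryos and 42.4 and 39.7 CPM in controls. The upper Mdivi-1 value and the lower control value of *Polr1b* were nearly equal, and its log2 fold change was -0.21 (edgeR adjusted p = 0.837). The partner of PAF53 is encoded by *Cd3eap*, which the rule on symbols does not take in. It had 26.4 and 22.6 CPM in Mdivi-1 embryos and 45.1 and 50.8 CPM in controls, again without overlap (log2 fold change -0.97, edgeR adjusted p = 0.245).

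*Polr1h* encodes A12, the zinc ribbon subunit that serves RNA cleavage by polymerase I. It lies on chromosome 17 from 36954356 to 36958559 on the minus strand and is named *Znrd1* in GENCODE M21. It had 122 and 113 CPM in Mdivi-1 embryos and 255 and 376 CPM in controls. Both controls lay well above both Mdivi-1 libraries, and control replicate 2 was the highest. The log2 fold change was -1.43 with a standard error of 0.32 (edgeR adjusted p = 0.153, DESeq2 adjusted p = 0.00115), and -1.14 without control replicate 2.

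*Polr1has* begins next to *Polr1h* and runs the other way, on the plus strand from 36958592 to 36965625. It was the 1 of the 30 Polr genes tested that lay higher in both Mdivi-1 libraries than in both controls, with 19.3 and 9.07 CPM in Mdivi-1 embryos and 4.51 and 4.46 CPM in controls. The Mdivi-1 libraries differed by more than the lower of them differed from the controls. The log2 fold change was 1.66 with a standard error of 0.65 (edgeR adjusted p = 0.272, DESeq2 adjusted p = 0.204), so that *Polr1has* was not called. It was 1.02 without Mdivi-1 replicate 1 and 2.09 without Mdivi-1 replicate 2. Counted reads of *Polr1h* were 6.33 and 12.4 times those of *Polr1has* in Mdivi-1 embryos and 56.6 and 84.3 times in controls. The libraries keep no strand, but the annotated exons of *Polr1h* and *Polr1has* share 0 bases, and their starts are 33 bases apart in GENCODE M21.

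**Figure D3:**
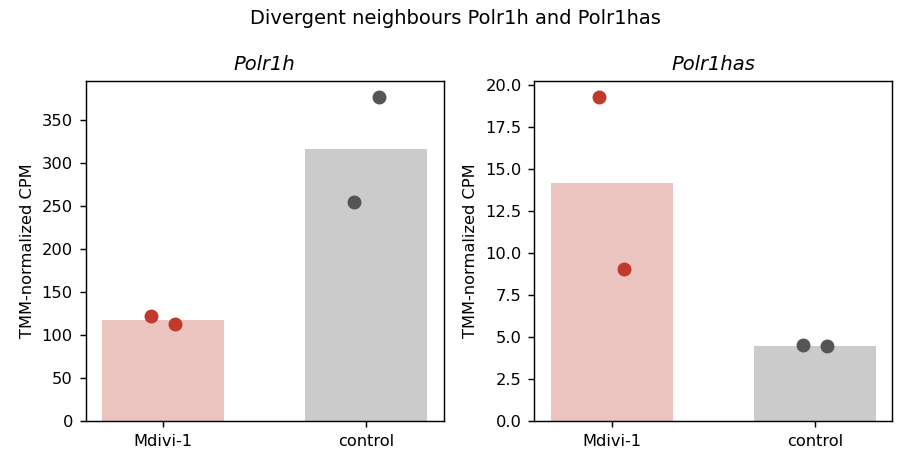
TMM-normalized CPM (y axes, linear and separate) of *Polr1h* and *Polr1has* in Mdivi-1 and control embryos (x axis), with dots for the libraries and bars for the means of 2. *Polr1h* is at 122 and 113 CPM in Mdivi-1 embryos and at 255 and 376 CPM in controls, whereas *Polr1has* is at 19.3 and 9.07 CPM in Mdivi-1 embryos and at 4.51 and 4.46 CPM in controls.

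The stretch between these opposite starts is shown because the log2 fold changes of the pair had opposite signs, although that of *Polr1has* was not called by edgeR or DESeq2. Windows from 250 bases before to 50 bases after the RefSeq start were taken on GRCm38.p6 and are printed 5′ to 3′ on the strand of each gene. The RefSeq starts are 75 bases apart, and the windows share 174 bases. Capitals mark the cyclic AMP response element (CRE) TGACGTCA and the NFY motif CCAAT or its reverse ATTGG.
Polr1h, chr17:36958476-36958775, minus strand: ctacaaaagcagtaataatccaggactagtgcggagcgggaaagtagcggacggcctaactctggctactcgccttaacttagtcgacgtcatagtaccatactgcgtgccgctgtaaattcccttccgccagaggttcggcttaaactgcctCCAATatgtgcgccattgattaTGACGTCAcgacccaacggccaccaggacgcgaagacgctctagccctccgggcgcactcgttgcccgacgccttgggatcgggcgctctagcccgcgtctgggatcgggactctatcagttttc
Polr1has, chr17:36958350-36958649, plus strand: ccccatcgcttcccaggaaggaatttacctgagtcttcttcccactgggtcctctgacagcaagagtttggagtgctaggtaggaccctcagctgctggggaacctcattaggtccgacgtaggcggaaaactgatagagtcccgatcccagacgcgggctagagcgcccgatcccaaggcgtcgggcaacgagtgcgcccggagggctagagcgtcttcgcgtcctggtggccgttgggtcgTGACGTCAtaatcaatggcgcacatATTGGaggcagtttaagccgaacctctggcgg
The same CRE stands at position -75 of *Polr1h* and -7 of *Polr1has*, counted from the RefSeq start of each printed window. *Polr1h* has a further RefSeq start, from which the CRE is at -172. The GENCODE M21 start of *Polr1has* lies just before the CRE, so that by it the CRE falls after the start. This motif occurred in 1.79% of 32851 RefSeq windows of the mouse genome, and among the subunits it occurred only in windows of *Polr1h*. A match of letters is a description and no measured binding site.

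The subunits of polymerase II only had a class median of -0.28 over 8 genes, with 5 negative and 3 positive log2 fold changes. The median was 0.061 without control replicate 1. *Polr2a* encodes the largest subunit, whose C-terminal repeats recruit RNA processing factors. It had 16.4 and 17.3 CPM in Mdivi-1 embryos and 19.1 and 10.1 CPM in controls, so that both Mdivi-1 libraries lay between the controls. Its log2 fold change was 0.21 (edgeR adjusted p = 0.903), and it was -0.20 without control replicate 2. *Polr2b*, for the second largest subunit, had 70.4 and 127 CPM in Mdivi-1 embryos and 148 and 83.1 CPM in controls. The groups overlapped, with a log2 fold change of -0.23 (edgeR adjusted p = 0.855), which was 0.24 without control replicate 1 and 0.13 when Mdivi-1 replicate 1 was left out.

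*Polr2d* and *Polr2g* encode RPB4 and RPB7, which together form the stalk of polymerase II, yet their transcripts had opposite signs. *Polr2d* had 444 and 410 CPM in Mdivi-1 embryos and 588 and 862 CPM in controls, with a log2 fold change of -0.76 and a standard error of 0.33 (edgeR adjusted p = 0.308, DESeq2 adjusted p = 0.122). *Polr2g* had 433 and 384 CPM in Mdivi-1 embryos and 245 and 394 CPM in controls. The *Polr2g* libraries overlapped, and its log2 fold change was 0.35 with a standard error of 0.34 (edgeR adjusted p = 0.681). Without control replicate 2 it was 0.72, the single subunit that was then higher at an unadjusted p under 0.05. *Polr2c* and *Polr2j* encode RPB3 and RPB11, the pair on which the core is assembled. *Polr2c* had 326 and 370 CPM in Mdivi-1 embryos and 265 and 331 CPM in controls, and *Polr2j* had 551 and 482 CPM in Mdivi-1 embryos and 616 and 674 CPM in controls. The groups overlapped for *Polr2c* and not for *Polr2j*, at log2 fold changes of 0.22 and -0.32 (edgeR adjusted p = 0.795 and 0.674). *Polr2i*, for the subunit RPB9, had 78.6 and 67.4 CPM in Mdivi-1 embryos and 89.6 and 185 CPM in controls, with a log2 fold change of -0.91 that was -0.31 without control replicate 2. *Polr2m*, for the polymerase II inhibitor GDOWN1, lay between 1.97 and 10.3 CPM in all libraries and had a log2 fold change of -0.52 with a standard error of 1.02, which was 1.12 without control replicate 1. Of the exonic bases, 26.8% of *Polr2i* overlap *Tbcb*, 18.1% of *Polr2c* overlap *Dok4* and 15.9% of *Polr2j* overlap *Lrwd1*, and reads there cannot be assigned without strand.

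The subunits of polymerase III only had a class median of -0.67, with 8 of the 9 genes tested negative. Both Mdivi-1 libraries lay below both controls in 8, against 23.9% of all genes. The stalk subunit RPC9 is encoded by *Crcp*, which the rule on symbols does not take in and which had 36.8 and 19.3 CPM in Mdivi-1 embryos and 62.8 and 49.3 CPM in controls. The groups of *Crcp* did not overlap (log2 fold change -0.998, edgeR adjusted p = 0.290). *Polr3b*, for the second largest subunit, had 8.75 and 26.7 CPM in Mdivi-1 embryos and 38.0 and 49.5 CPM in controls. The Mdivi-1 libraries of *Polr3b* differed widely, so that its log2 fold change of -1.30 had a standard error of 0.55 (edgeR adjusted p = 0.304, DESeq2 adjusted p = 0.170) and ranged from -2.34 to -0.71 when each library was left out. *Polr3a*, for the largest subunit, had 56.0 and 37.6 CPM in Mdivi-1 embryos and 82.0 and 57.7 CPM in controls. Here the nearest values of the groups were almost equal, and the log2 fold change was -0.58 (edgeR adjusted p = 0.485).

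The other polymerase III subunits form smaller modules. *Polr3c*, *Polr3f* and *Polr3g* encode RPC3, RPC6 and RPC7, a trimer that opens the promoter, and had log2 fold changes of -0.87, 0.25 and -0.35. The value of *Polr3f* was -0.083 without Mdivi-1 replicate 1, and that of *Polr3g* was -0.11 without control replicate 2. *Polr3d* and *Polr3e* encode RPC4 and RPC5, a TFIIF-like pair, and had -0.27 and -0.76. *Polr3k*, for the RNA cleavage subunit, had 686 and 528 CPM in Mdivi-1 embryos and 784 and 1148 CPM in controls (log2 fold change -0.67, edgeR adjusted p = 0.385). Its level was the highest of the class per length too, at a mean of 194 CPM per kb in Mdivi-1 embryos and 309 CPM per kb in controls. RPC7 has alternative forms, encoded by *Polr3g*, which is the form of pluripotent cells, and by *Polr3gl*, which is the form of most differentiated cells. *Polr3g* had 72.5 and 81.3 CPM in Mdivi-1 embryos and 81.9 and 114 CPM in controls. The upper Mdivi-1 library nearly reached the lower control, and the edgeR adjusted p was 0.659. *Polr3gl* had raw counts of 8 and 23 in Mdivi-1 embryos and 0 and 6 in controls, below the minimum for a test. *Polr3g* thus supplied nearly all counts of the pair in either group, with 2910 against 31 of *Polr3gl* in Mdivi-1 embryos and 3541 against 6 in controls.

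Subunits shared by several polymerases and those of a single polymerase had nearly the same median log2 fold change, -0.66 over 7 genes and -0.62 over 22 genes. All 7 shared subunits and 18 of the 22 others had a negative log2 fold change, against 48.7% of all genes. Both Mdivi-1 libraries lay below both controls in 5 of the 7 and in 16 of the 22, against 23.9% of all genes. DESeq2 called 2 shared subunits and 4 of the others lower, against 2.8% of all genes. The single-polymerase subunits were themselves spread from a median of -1.10 for polymerase I to -0.28 for polymerase II. The class medians of the shared subunits depended on the control libraries. For the subunits of all of polymerases I, II and III the median was -1.12 without control replicate 1, -0.29 without control replicate 2 and -0.94 when Mdivi-1 replicate 1 was left out, and for those of polymerases I and III it was -0.32 without control replicate 2. The polymerase I median lay between -1.30 and -0.91 in the same fits, and the differences between classes were not tested.

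**Figure D4:**
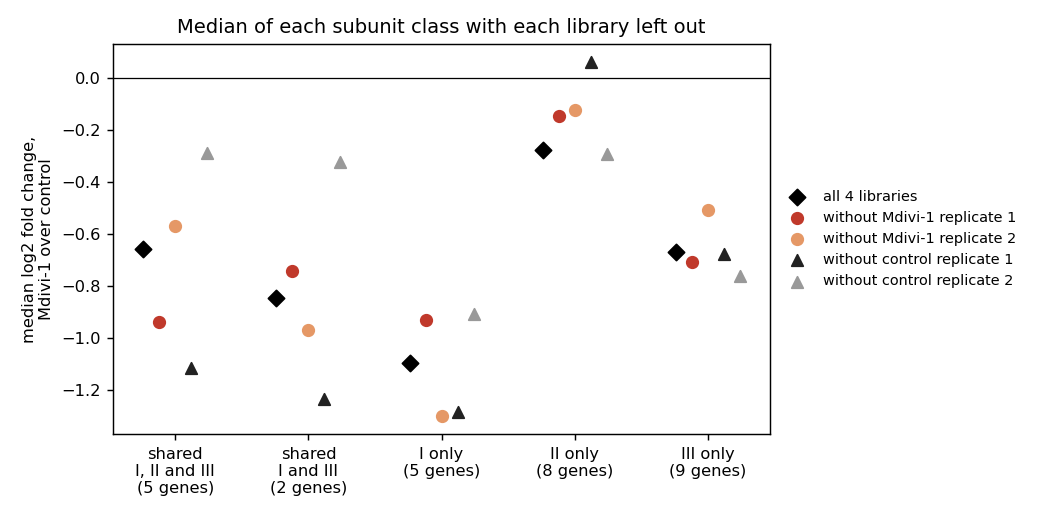
Median log2 fold change, Mdivi-1 over control (y axis), of each subunit class (x axis) with all 4 libraries (diamonds) and with each library left out in turn (circles and triangles). Polymerase I subunits stay between -1.30 and -0.91, the subunits shared by all of the polymerases range from -1.12 to -0.29, and polymerase II subunits reach 0.061 without control replicate 1.

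The control libraries differed from each other by more than the log2 fold change in 12 of the 29 subunits, among them *Polr1d*, *Polr2k*, *Polr2l* and *Polr2i*. The Mdivi-1 libraries did so in 5. Control replicate 2 lay above control replicate 1 in 19 subunits, more so in those with short transcripts. *Polr2k*, with 624 exonic bases, was 381 CPM in control replicate 2 and 155 CPM in control replicate 1, whereas *Polr2a*, with 7067 exonic bases, was 10.1 and 19.1 CPM. Over all genes tested, the median log2 ratio of control replicate 2 to control replicate 1 was 0.44 below 1000 exonic bases and -0.23 from 8000 bases up. Spearman's rho between this ratio and exonic length was -0.55 across the 29 subunits and -0.15 across all 14259 genes, which share the same 2 libraries. The log2 fold change itself had a rho of 0.23 with exonic length across the subunits. The part of length in the subunit results was not tested.

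**Figure D5:**
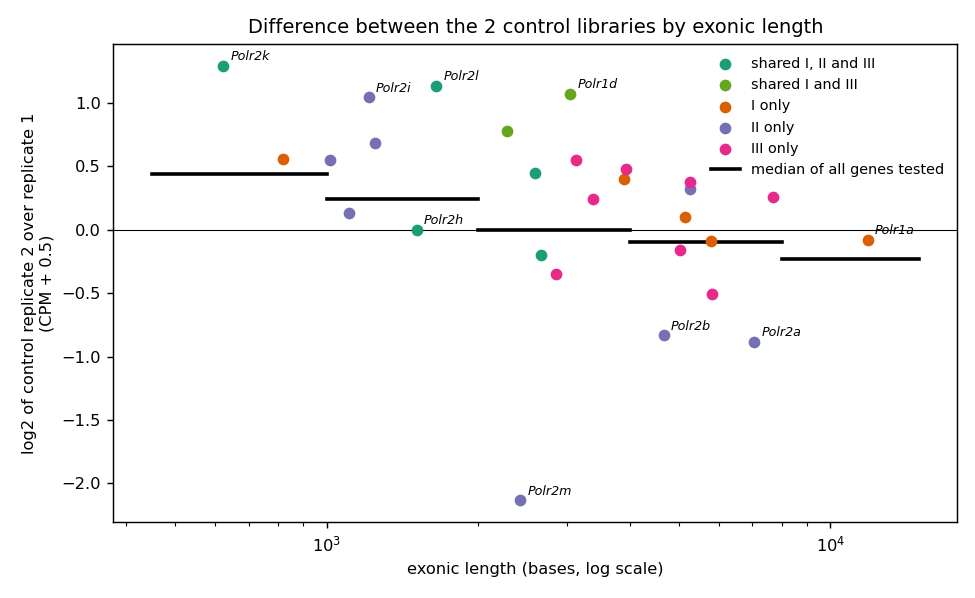
Log2 ratio of control replicate 2 to control replicate 1, from CPM with 0.5 added (y axis), against exonic length in bases (x axis, log scale) for 28 of the 29 subunits tested, coloured by class. Black bars are medians of all genes tested in 5 ranges of length, at 0.44 for the shortest and -0.23 for the longest, and *Polr2k*, *Polr2l*, *Polr2i* and *Polr1d* lie highest.

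Per kilobase of exon, the levels of the subunits within one enzyme covered a wide range. The length used joins all annotated exons of a gene and is not that of the transcript present. These levels are therefore not proportions of transcript molecules. *Polr2d* and *Polr2j* were highest, at 421 and 467 CPM per kb in Mdivi-1 embryos and 714 and 583 CPM per kb in controls. *Polr2a* was near the bottom, at 2.38 CPM per kb in Mdivi-1 embryos and 2.06 CPM per kb in controls, although its protein enters the same enzyme. Among the subunits tested, the median level of those shared by all of polymerases I, II and III was 188 and 199 CPM per kb in Mdivi-1 embryos and 248 and 318 CPM per kb in controls. For polymerase I subunits it was 8.03 and 6.84 CPM per kb in Mdivi-1 embryos and 19.6 and 21.02 CPM per kb in controls. For polymerase II subunits the medians were 63.5 and 63.0 CPM per kb in Mdivi-1 embryos and 62.2 and 108 CPM per kb in controls, and for polymerase III subunits they were 5.68 and 5.08 CPM per kb in Mdivi-1 embryos and 10.5 and 9.40 CPM per kb in controls. The medians of these shared, polymerase I and polymerase III classes lay lower in both Mdivi-1 libraries than in both controls, and those of the polymerase II class did not.

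RefSeq windows were found for 24 of the 30 subunits, with 27 windows in all because some genes have several starts. The windows of *Polr2h*, which had the smallest DESeq2 adjusted p, and of *Polr2c*, whose log2 fold change was positive, are set side by side. Capitals in *Polr2h* mark the SP1/KLF motif GGGCGG and the E-box CACGTG. Those in *Polr2c* mark the NFY motif CCAAT, the TATA box letters TATAAA and, after the start, the ETS motif CCGGAAG.
Polr2h, chr16:20717576-20717875, plus strand: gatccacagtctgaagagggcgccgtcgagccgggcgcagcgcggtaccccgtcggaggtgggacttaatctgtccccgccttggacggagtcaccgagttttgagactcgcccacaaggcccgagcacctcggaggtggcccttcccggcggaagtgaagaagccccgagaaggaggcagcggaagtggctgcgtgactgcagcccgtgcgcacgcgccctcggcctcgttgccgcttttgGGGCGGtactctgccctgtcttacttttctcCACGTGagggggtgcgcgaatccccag
Polr2c, chr8:94857200-94857499, plus strand: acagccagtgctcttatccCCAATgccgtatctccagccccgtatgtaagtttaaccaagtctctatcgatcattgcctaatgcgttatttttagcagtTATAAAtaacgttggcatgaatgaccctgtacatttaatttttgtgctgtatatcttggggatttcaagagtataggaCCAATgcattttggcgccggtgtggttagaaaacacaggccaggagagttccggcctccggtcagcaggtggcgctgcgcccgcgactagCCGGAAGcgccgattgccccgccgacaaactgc
On either strand, the ETS motif CCGGAAG stood in 7 of the 27 subunit windows (25.9%), against 8.86% of all 32851 windows. The windows with it belong to *Polr1c*, *Polr1e*, *Polr2c*, *Polr2f*, *Polr2j*, *Polr3b* and *Polr3g*, whose log2 fold changes run from -1.30 to 0.22. The motif GGGCGG stood in 15 of 27 (55.6%), against 35.7% of all windows, CCAAT in 9 of 27 (33.3%), against 37.4%, and CACGTG in 4 of 27 (14.8%), against 7.15%. TATAAA stood in windows of *Polr2a* and *Polr2c* only (7.41%, against 13.6% of all windows). The NRF1 core GCATGCGC stood in 2 windows (7.41%, against 2.71%), while the YY1 motif AAGATGGC (2.75% of all windows) and the ZNF143-associated ACTACAA (3.24%) stood in 0. None of these motifs overlaps another in the sequences printed. The motifs were counted as exact letters and not tested for a relation to the fold changes.

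A related list of 40 tested genes held genes that work with the polymerases. It also held the 2 subunit genes *Cd3eap* and *Crcp* and the mitochondrial polymerase gene *Polrmt*. Of the 40, 32 were negative in log2 fold change, against 48.7% of all genes, and the median was -0.36. At an unadjusted edgeR p under 0.05, 7 were lower and 1 was higher, against 7.64% and 8.27% of all genes. *Cd3eap*, *Crcp* and *Polrmt* were among these 7. Counts of 1 or 2 in the lists that follow are not far from that background. All 7 polymerase I factors had a negative log2 fold change (median -0.56), and 1 of them, the termination factor gene *Ttf1*, was lower at that p, with 10.7 and 22.4 CPM in Mdivi-1 embryos and 41.7 and 42.8 CPM in controls. *Rrn3*, whose product joins polymerase I to its promoter through A43, had 182 and 172 CPM in Mdivi-1 embryos and 512 and 129 CPM in controls, so that its controls lay on both sides of the Mdivi-1 libraries. Of 16 polymerase III factors, 13 were negative (median -0.19), and *Gtf3c3*, a subunit of TFIIIC, and *Snapc5*, a subunit of the snRNA-activating complex, were lower at that p. *Gtf3c3* had 25.7 and 40.5 CPM in Mdivi-1 embryos and 59.8 and 96.7 CPM in controls. Of 14 assembly and import factors, 9 were negative (median -0.22), *Ruvbl2* was lower and *Rtraf* was higher at that p. The edgeR adjusted p of these genes lay above 0.05 throughout, as for all genes tested.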

How the data were processed

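The authors trimmed reads with cutadapt 1.16, used STAR at default settings for mapping (build mm10 in the submitters' processing notes) and took the exon counts of its GeneCounts mode. The deposited raw counts of the 2 Mdivi-1 and 2 control libraries were used. The deposited table also holds a signal per library (counts divided by a size factor) and its mean, and the authors' own comparison as log2 fold changes, a Wald score and p-values, none of which were used.

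Genes passing filterByExpr (minimum count 10) were scaled by TMM and tested two-sided with the quasi-likelihood test of edgeR 4.0.16 (R 4.3.3), and p-values were adjusted by Benjamini-Hochberg over 14259 genes. Standard errors were derived from that test. DESeq2 1.42.0, limma-voom (limma 3.58.1), the likelihood ratio test, other scalings and filters, a replicate block and leaving out each library were alternatives. The tests were checked on simulated data, with 50 genes changed at each fold and 14059 unchanged. The changed genes were drawn from all genes tested, whose median level was 9.88 CPM, against 107 CPM for the subunits. Simulated libraries held no trend with length and no difference in composition beyond the changed genes. The rates below are therefore not rates for the subunits in these libraries. Of genes changed 2-fold, edgeR's quasi-likelihood test called 1 of 50 and DESeq2 2 of 50 at an adjusted p under 0.05. At 4-fold they called 22 and 29 of 50. Of the 14059 unchanged genes, the quasi-likelihood test called 5 and DESeq2 71. Exonic length and coordinates are from GENCODE M21 (GRCm38), promoter windows from RefSeq.

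A member that counts and medians include is not reported here. Members and lists were chosen with earlier results of these data known. Values per library were to be given for shared subunits, the largest pairs, *Polr3g* and *Polr3gl*, and members with an unadjusted edgeR p or a DESeq2 adjusted p under 0.05. Those of *Polr2c*, *Polr2g*, *Polr2i*, *Polr2j*, *Polr3k* and named genes that are no members were added after their values were seen, and the NRF1 motif was then shortened to its core.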

Additional observations from a re-analysis of the deposited data

How the results depend on the processing

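The sign of the 20 named members tested stayed the same in most alternatives. Of 320 values, 9 had the opposite sign, in 4 genes. *Polr2b* was 0.24 (DESeq2 0.21) without control replicate 1 and 0.13 (DESeq2 0.13) without Mdivi-1 replicate 1, in a range of -0.73 to 0.24. Without control replicate 2, *Polr1d* was 0.059 (DESeq2 0.057, range -0.996 to 0.059), *Polr2a* -0.20 (DESeq2 -0.20, range -0.20 to 0.74) and *Polr2l* 0.00178 (range -1.12 to 0.00178). Against 0 subunits by edgeR's quasi-likelihood test, DESeq2 called 6 at an adjusted p under 0.05, the edgeR likelihood ratio test 5, edgeR without a low-count filter 5 and limma-voom 3. Over all genes the same settings called 853, 870, 819 and 202. The cause was not tested.

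With each library left out in turn, subunits lower at an unadjusted p under 0.05 numbered 4 to 13 (DESeq2 4 to 14) and higher 0 to 1, and DESeq2 called 0 to 11 after adjustment. DESeq2 without single libraries was added after seeing the data. Medians ranged from -1.12 to -0.29 (DESeq2 -1.16 to -0.29, and -0.94 without Mdivi-1 replicate 1) for subunits of all of polymerases I, II and III, from -1.23 to -0.32 (DESeq2 -1.27 to -0.33) for those of I and III, from -1.30 to -0.91 (DESeq2 -1.32 to -0.91) for polymerase I and from -0.29 to 0.061 (DESeq2 -0.29 to 0.022) for polymerase II.

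The spread for judging class medians, the median over members of the SD within groups of log2 CPM, was set after the values were seen. An earlier measure, 1 SD of the class median between libraries, would have counted as moved, for subunits of all of the polymerases, DESeq2 (-0.68), its size factors in edgeR (-0.68), limma-voom (-0.57), the replicate block (-0.57) and library totals (-0.46), and for polymerase I library totals (-0.95). Scaling by library totals moved the median of all genes to 0.14, and left 6 subunits lower at an unadjusted p under 0.05.

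Over all genes tested, the deviations of replicates of the same number from their group means had a correlation of 0.00809. A single value over all genes cannot exclude a shared litter or batch, and the sources do not say whether the libraries were paired. The replicate block gave 7 subunits lower at an unadjusted p under 0.05 and 0 after adjustment. With 2 libraries in each group, small differences between subunits were not detectable, and amplification without molecular tags also affects the spread. The biological coefficient of variation of 0.66 is common to all genes tested and is not that of the subunits. Over the subunits, the median SD within groups of log2 CPM was 0.28.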

Other observations

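*Polrmt*, which encodes the single-subunit RNA polymerase of mitochondria, had 2.52 and 3.44 CPM in Mdivi-1 embryos and 14.1 and 14.1 CPM in controls. The groups did not overlap, and the log2 fold change was -2.24 with a standard error of 0.63 (edgeR adjusted p = 0.193, DESeq2 adjusted p = 0.0478). Among the 29 nuclear subunits tested the most negative log2 fold change was -1.45.

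*Rtraf*, a gene of the assembly and import list, had 150 and 154 CPM in Mdivi-1 embryos and 85.7 and 91.5 CPM in controls (log2 fold change 0.78, edgeR adjusted p = 0.250, DESeq2 adjusted p = 0.157). *Rpap2*, which encodes a phosphatase that binds polymerase II, had 33.2 and 32.1 CPM in Mdivi-1 embryos and 19.9 and 19.2 CPM in controls (log2 fold change 0.74, edgeR adjusted p = 0.379). In the same list *Ruvbl2*, a chaperone ATPase, had 13.0 and 14.0 CPM in Mdivi-1 embryos and 28.3 and 33.2 CPM in controls (log2 fold change -1.19, edgeR adjusted p = 0.232, DESeq2 adjusted p = 0.156), whereas its partner *Ruvbl1* had 225 and 215 CPM in Mdivi-1 embryos and 208 and 258 CPM in controls. These genes were chosen after their values were seen.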
